A study of Mus musculus with 8 samples.

Results

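The Sonic hedgehog pathway was examined in the embryonic mouse hippocampus through 10 genes chosen by name for their place in the pathway. The rule uses no measured value, but earlier results of these data were known when the genes were chosen. The 10 genes are the ligand Shh, the receptor Ptch1, the signal transducer Smo, the coreceptors Boc and Cdon, the inhibitors Sufu and Hhip, and the transcription factors Gli1, Gli2 and Gli3. All 10 are among the 16397 genes of the count table and all 10 passed the count filter, which left 13707 protein-coding genes to be tested. Total RNA had been sequenced from hippocampi of wild-type C57Bl/6J embryos at embryonic day 15.5, with 4 samples from intrauterine growth restriction (IUGR) and 4 from sham surgery. In the IUGR group, pregnant dams were made hypertensive by a micro-osmotic pump that released U-46619, a thromboxane A2 analog, and in the sham group the pump held vehicle alone. Pumps were placed at E12.5 in both groups. Both sexes were used, but the labels give no sex, dam or litter for any sample. The IUGR samples are titled T1-1, T1-3, T1-4 and T1-5, and the sham samples S1-4, S1-6, S3-1 and S3-4. The meaning of the prefixes T1, S1 and S3 is not given in the sources used here, and because all IUGR samples carry T1, whatever it marks cannot be told apart from the treatment.

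Hedgehog signaling works by release from inhibition. Without ligand, PTCH1 keeps SMO inactive at the primary cilium, SUFU holds the GLI proteins back, and GLI3 in particular is cut to a repressor. When SHH binds PTCH1, helped by the coreceptors BOC and CDON, SMO becomes active and full-length GLI proteins, mainly GLI2, turn on target genes. Gli1, Ptch1 and Hhip are themselves such targets, and their transcripts are widely read as a measure of pathway output. In the embryonic forebrain, SHH is best known for patterning ventral structures, whereas Gli3 is needed in the dorsal telencephalon for the cortical hem and the hippocampus to form.

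Promoter sequences of 7 of the 10 genes were found in the RefSeq annotation of GRCm38.p6, each as 250 bases before to 50 bases after a transcription start. Those of Ptch1 (chr13:63565686-63565985, minus strand) and Hhip (chr8:80057959-80058258, minus strand) are printed 5′ to 3′ because both genes are readouts of the pathway. In both, as described below, the S1 sham samples lay above the S3 sham samples, though S1-4 and S3-4 were close. Capitals mark CACCC or its reverse complement GGGTG, the core of the GLI binding motif.
Ptch1: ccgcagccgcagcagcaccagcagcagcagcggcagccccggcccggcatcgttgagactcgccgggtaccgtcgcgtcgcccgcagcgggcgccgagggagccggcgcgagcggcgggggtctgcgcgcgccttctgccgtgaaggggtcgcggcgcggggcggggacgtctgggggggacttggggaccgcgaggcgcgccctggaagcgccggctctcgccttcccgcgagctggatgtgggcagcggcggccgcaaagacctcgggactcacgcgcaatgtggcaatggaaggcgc
Hhip: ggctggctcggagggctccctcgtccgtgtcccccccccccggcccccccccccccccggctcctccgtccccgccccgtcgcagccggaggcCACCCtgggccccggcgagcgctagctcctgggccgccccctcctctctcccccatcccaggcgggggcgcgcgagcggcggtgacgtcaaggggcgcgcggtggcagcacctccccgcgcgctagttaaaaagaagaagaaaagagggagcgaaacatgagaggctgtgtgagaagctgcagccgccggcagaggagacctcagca
The Ptch1 window was 76.3% G or C and the Hhip window 73.7%, against a median of 52.7% over 32851 promoters. The full GLI motif GACCACCCA, read on both strands, was in 0 of the 7 windows and in 0.253% of all promoters of this length. With any base at the middle position (GACCNCCCA), it was in 0 of the 7 and in 0.977% of all. The core CACCC, contained in the longer motif, was in 4 of the 7 windows and in 57.5% of all promoters. These letters describe these windows only, and 3 of the 7 windows (Ptch1, Cdon and Gli3) lie inside the gene as GENCODE gives it, so that they belong to an inner start.

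None of the 10 hedgehog genes passed the test for a difference between IUGR and sham hippocampi, and the samples of each group spread widely. With edgeR's quasi-likelihood test and Benjamini-Hochberg adjustment over the 13707 tested genes, 0 of 10 met the criteria of the study for differential expression, which were an adjusted p not above 0.05 together with a fold change, on the log2 scale, of 1 or more up or down. A change of that size alone was met by 1 of the 10 (Shh), against 6.49% of all tested genes. The same criteria called 1.46% of all tested genes (1.36% lower and 0.102% higher in IUGR). The number of hedgehog genes with an unadjusted p under 0.05 was also 0, against 11.1% of all tested genes. DESeq2 and limma-voom likewise called 0 of the 10, while they called 425 and 328 of the 13707 tested genes. Both gave 0 of the 10 at an unadjusted p under 0.05, for which their share over all genes is not given here. In all 10 genes the CPM values (counts per 1000000 counts, scaled by edgeR's TMM method) of the groups overlapped. They did not overlap for 7.14% of all tested genes. With shares this low, 0 of 10 called and 0 of 10 without overlap lie near the shares and are not particular to the hedgehog genes. Fold changes were negative for 6 genes and positive for 4, with a median of −0.07 on the log2 scale, against −0.02 over all tested genes, of which 55.5% were lower. Because the tissue is bulk RNA, fewer cells that express a gene and less RNA per cell cannot be told apart. The labels do not say that samples came from separate dams, so the p-values measure the spread between these samples only. With 4 against 4 samples, the exact two-sided permutation test reported for single genes cannot give a p under 0.0286.

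**Figure D1:**
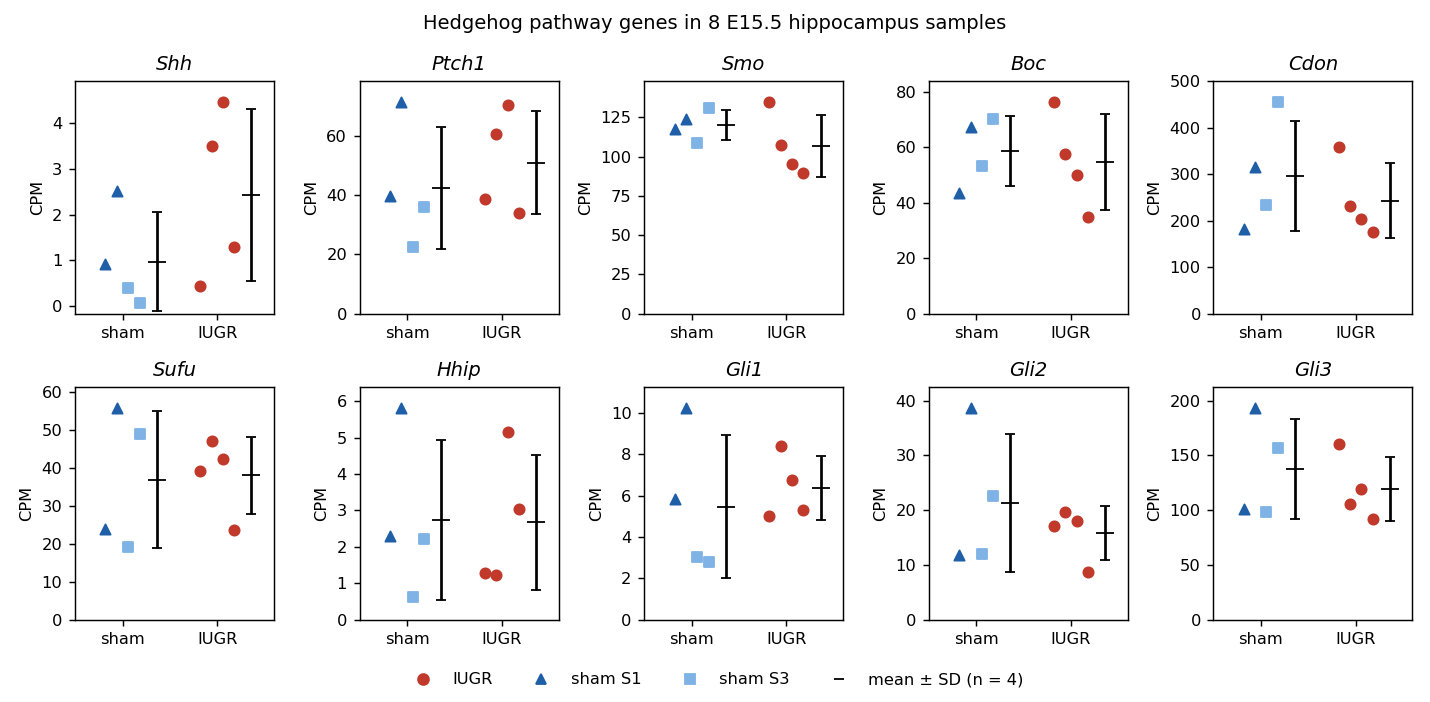
CPM of the 10 hedgehog genes (vertical axes, each from 0 or just below it) in the 4 sham and 4 IUGR samples, with circles for IUGR, triangles for sham S1, squares for sham S3, and the mean ± SD of each group beside the points. The groups overlapped in all 10 genes, and in Shh, Ptch1, Hhip and Gli1 both S1 samples lay above both S3 samples.

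Shh (chromosome 5, 28456815 to 28467256, GRCm38) encodes the secreted ligand and was rare in these hippocampi. Its expression was 0.450 (T1-1), 3.50 (T1-3), 4.47 (T1-4) and 1.29 CPM (T1-5) in IUGR and 0.924 (S1-4), 2.51 (S1-6), 0.392 (S3-1) and 0.0713 CPM (S3-4) in sham samples. A two-sided comparison of 2.43 ± 1.87 CPM with 0.975 ± 1.08 CPM (SD, n = 4 each) gave an exact permutation p of 0.200. T1-3 and T1-4 exceeded all sham samples, but T1-1 was below both S1 samples, so that the high values came from part of the IUGR group. The log2 fold change of 1.34 (standard error 0.85) was the largest among the 10 genes in either direction, with a 95% interval from −0.56 to 3.23 and an adjusted p of 0.751 from edgeR's test. The reads behind these values were few, with 6, 57, 53 and 17 counts in T1-1, T1-3, T1-4 and T1-5, and 10, 29, 5 and 1 counts in S1-4, S1-6, S3-1 and S3-4. A fold change of up to 9.39 in favor of IUGR therefore lies within the interval, as does a fall to 0.680 of sham. Without S1-6 the log2 fold change was 2.48, and without S3-4 it was 0.93. The exons of Shh share 446 bases with the antisense gene 9530036O11Rik and 361 with Gm26894, both on the opposite strand, and whether reads were counted by strand is not stated.

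Among the receptors, the expression of neither Ptch1 nor Smo passed the test. Ptch1 (chromosome 13, 63508328 to 63573598), the SHH receptor and a target of the pathway, stood at 38.5, 60.5, 70.5 and 34.0 CPM in T1-1, T1-3, T1-4 and T1-5. In S1-4, S1-6, S3-1 and S3-4 it stood at 39.8, 71.3, 22.6 and 36.1 CPM. All 4 IUGR values thus fell inside the sham range, whose ends were S3-1 and S1-6. The group means were 50.9 ± 17.5 and 42.4 ± 20.6 CPM (SD, n = 4 each), and the log2 fold change was 0.26 (95% interval −0.49 to 1.02, adjusted p = 0.9995 in edgeR's test, exact permutation p = 0.629). Smo (chromosome 6, 29735503 to 29761365), which carries the signal across the membrane, was the steadiest of the 10 genes. It was 135, 108, 95.3 and 89.7 CPM in T1-1, T1-3, T1-4 and T1-5, and 117, 124, 109 and 131 CPM in S1-4, S1-6, S3-1 and S3-4. Of the 4 IUGR samples, 3 were below the lowest sham sample, while T1-1 was above the highest. The log2 fold change of Smo was −0.17 (standard error 0.14, 95% interval −0.49 to 0.15, adjusted p = 0.926 in edgeR's test, exact permutation p = 0.286). That interval excludes a fold change of 2 in either direction.

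The coreceptors Boc and Cdon are related cell surface proteins that bind SHH and aid its reception, and both had abundant transcripts. Boc (chromosome 16, 44485049 to 44558897) was 76.3, 57.5, 49.97 and 34.9 CPM in T1-1, T1-3, T1-4 and T1-5 and 43.4, 67.4, 53.4 and 70.4 CPM in S1-4, S1-6, S3-1 and S3-4. The IUGR samples held both the highest and the lowest value of the 8. Its log2 fold change was −0.10 (95% interval −0.63 to 0.43). Cdon (chromosome 9, 35421128 to 35507652) was 360, 233, 204 and 176 CPM in T1-1, T1-3, T1-4 and T1-5, and 182, 315, 235 and 455 CPM in S1-4, S1-6, S3-1 and S3-4. T1-1 was again the highest of the IUGR samples and T1-5 the lowest, and the sham range from S1-4 to S3-4 covered all but T1-5. Its log2 fold change was −0.29 (95% interval −0.94 to 0.36, exact permutation p = 0.514).

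The inhibitors act at different places, SUFU on the GLI proteins inside the cell and HHIP by binding the ligand outside it. Sufu (chromosome 19, 46396896 to 46488804) was 39.1, 47.1, 42.2 and 23.7 CPM in T1-1, T1-3, T1-4 and T1-5 and 24.0, 55.7, 19.1 and 48.8 CPM in S1-4, S1-6, S3-1 and S3-4. The sham samples fell into a low pair (S1-4 and S3-1) and a high pair (S1-6 and S3-4) that did not follow the prefix, and the IUGR samples lay between their extremes. Its log2 fold change was 0.04 (95% interval −0.71 to 0.80). Hhip (chromosome 8, 79965851 to 80058006), whose promoter is printed above, was 1.27, 1.23, 5.14 and 3.04 CPM in T1-1, T1-3, T1-4 and T1-5 and 2.31, 5.80, 0.628 and 2.21 CPM in S1-4, S1-6, S3-1 and S3-4. T1-4 and S1-6 stood above the other samples, and means of 2.67 ± 1.85 and 2.74 ± 2.18 CPM (SD, n = 4 each) left a log2 fold change of −0.04. With a 95% interval from −1.46 to 1.37, a 2-fold change of Hhip in either direction could not be told from no change in these samples.

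Of the transcription factors, Gli1 is an activator and target of the pathway, Gli2 its main activator and Gli3 its main repressor, and none of them passed the test. Gli1 (chromosome 10, 127329882 to 127341974) was 5.02, 8.42, 6.74 and 5.32 CPM in T1-1, T1-3, T1-4 and T1-5, and 5.82, 10.2, 3.06 and 2.78 CPM in S1-4, S1-6, S3-1 and S3-4. The IUGR values all fell between the S3 samples and S1-6, and the log2 fold change was 0.23 (95% interval −0.67 to 1.13). Gli2 (chromosome 1, 118834132 to 119053619) was 17.1, 19.7, 18.0 and 8.75 CPM in T1-1, T1-3, T1-4 and T1-5 and 11.9, 38.6, 12 and 22.5 CPM in S1-4, S1-6, S3-1 and S3-4. Its log2 fold change of −0.42 (95% interval −1.29 to 0.45, adjusted p = 0.960 in edgeR's test) was the most negative of the 10, and it turned to 0.06 without S1-6. Gli3 (chromosome 13, 15463235 to 15730026) was 160, 105, 120 and 92.2 CPM in T1-1, T1-3, T1-4 and T1-5, and 101, 193, 98.3 and 157 CPM in S1-4, S1-6, S3-1 and S3-4. The 2 highest sham samples were S1-6 and S3-4, and only T1-5 lay below all sham samples. The log2 fold change of Gli3 was −0.20 (95% interval −0.74 to 0.34, exact permutation p = 0.571) and became 0.03 without S1-6. On the opposite strand, Gli1 shares 62 exon bases with Arhgap9 and 265 with Gm47200, Gli3 shares 188 with Gm6556, and Hhip shares 175 with Gm27820.

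**Figure D2:**
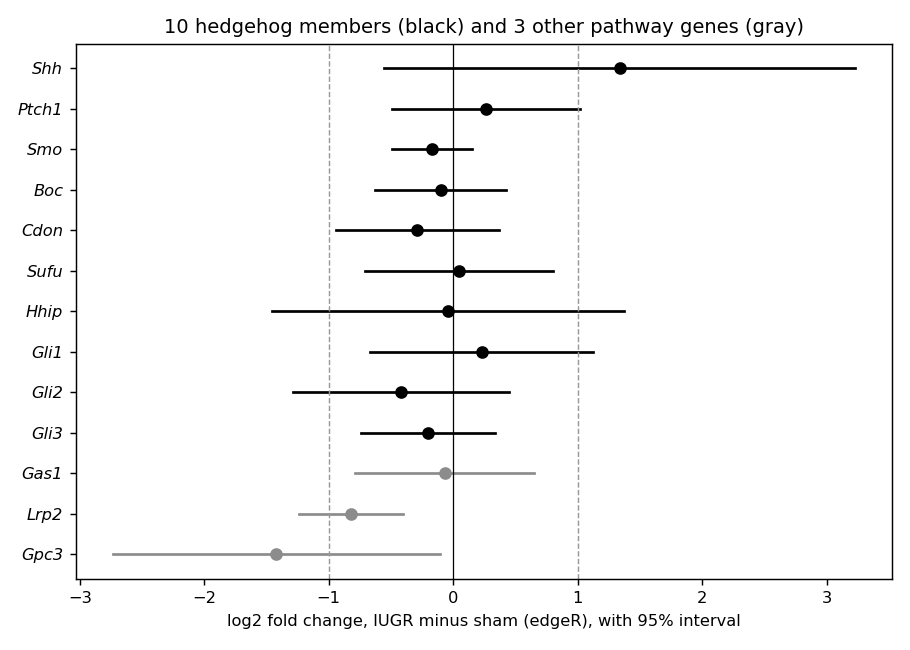
Log2 fold change of IUGR over sham (horizontal axis, points) with its 95% interval (lines) from edgeR for the 10 hedgehog genes in black and Gas1, Lrp2 and Gpc3 in gray, with dashed lines at −1 and 1. All 10 intervals of the hedgehog genes cross 0, that of Smo is the narrowest (−0.49 to 0.15), and those of Lrp2 and Gpc3 lie below 0.

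Per length of exon, the coreceptors, Smo and Gli3 were more abundant than the ligand and the targets Ptch1, Gli1 and Hhip. On the scale of CPM per kilobase of annotated exon, the mean level over the 8 samples was 35.0 for Cdon, 20.2 for Smo, 13.4 for Gli3, 12.7 for Boc, 4.87 for Sufu, 3.29 for Ptch1, 2.70 for Gli2, 1.19 for Gli1, 0.598 for Shh and 0.298 for Hhip. Gli3, the repressor, thus stood above the activators Gli2 and Gli1. Within each sample, Cdon exceeded Smo, Smo exceeded Gli3, Boc exceeded Sufu, Sufu exceeded Ptch1, and Gli2 exceeded Gli1 in 8 of 8 samples. Gli1 exceeded Shh, and Shh exceeded Hhip, in 7 of 8. The order of Gli3 and Boc, and that of Ptch1 and Gli2, held in 5 of 8 samples only. Across samples, the ranges of neighbors in this order overlapped except for Boc (7.84 to 17.1) and Sufu (2.48 to 7.24).

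**Figure D3:**
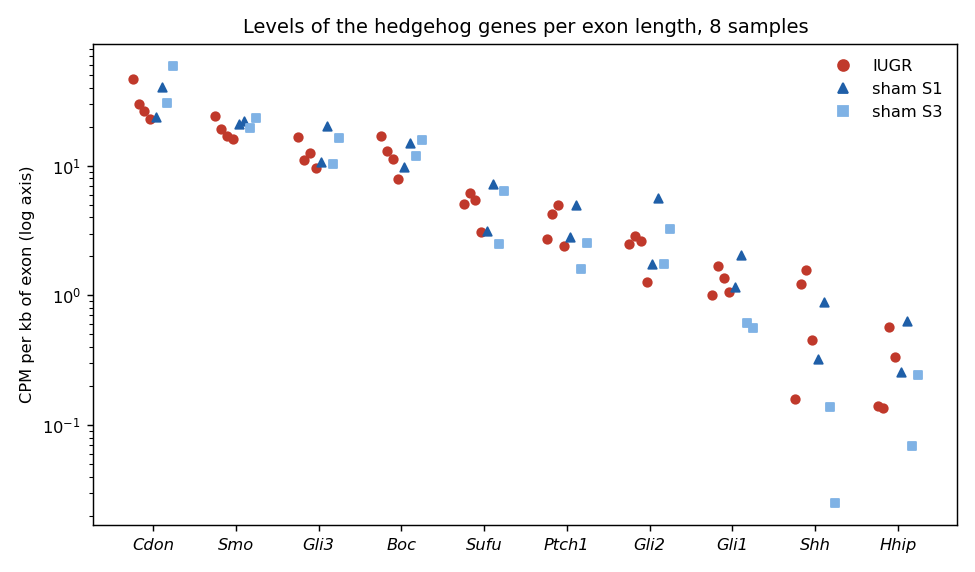
Levels of the 10 hedgehog genes in CPM per kilobase of exon (vertical axis, logarithmic) in order of their mean, with 1 point per sample (circles IUGR, triangles sham S1, squares sham S3). Cdon, at 22.8 to 59.0, was above Gli1, Shh and Hhip in every sample, and the spread widened toward the low genes, with Shh between 0.0250 and 1.57.

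The hedgehog genes varied more between samples of the same group than most genes with a similar number of counts. The standard deviation of log2 CPM within groups (prior count 2) was 1.43 for Shh, larger than in 98.1% of the tested genes whose mean count was within a factor of 1.5 of its own. It was 0.51 for Cdon (larger than 96.4%), 0.60 for Ptch1 (96.2%), 0.62 for Sufu (95.7%), 0.68 for Gli2 (93.2%), 1.08 for Hhip (92.8%) and 0.41 for Gli3 (92.8%). Boc, at 0.40, exceeded 87.7% and Gli1, at 0.65, exceeded 81.3%. Only Smo, at 0.20 (43.8%), lay below the median of genes of like count, so that 9 of 10 were above that median and 7 above 90% of such genes. This comparison is a description, as the 10 genes share the same 8 samples. The extremes were not spread evenly over samples either. S1-6 had the highest value of the 8 samples in 6 of the 10 genes (Ptch1, Sufu, Hhip, Gli1, Gli2 and Gli3), although it was highest in 11.4% of all tested genes. T1-5 was lowest in 5 of the 10 (Smo, Boc, Cdon, Gli2 and Gli3), against 11.1% of all tested genes, and S3-1 was lowest in 3 (Ptch1, Sufu and Hhip), against 15.5%.

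**Figure D4:**
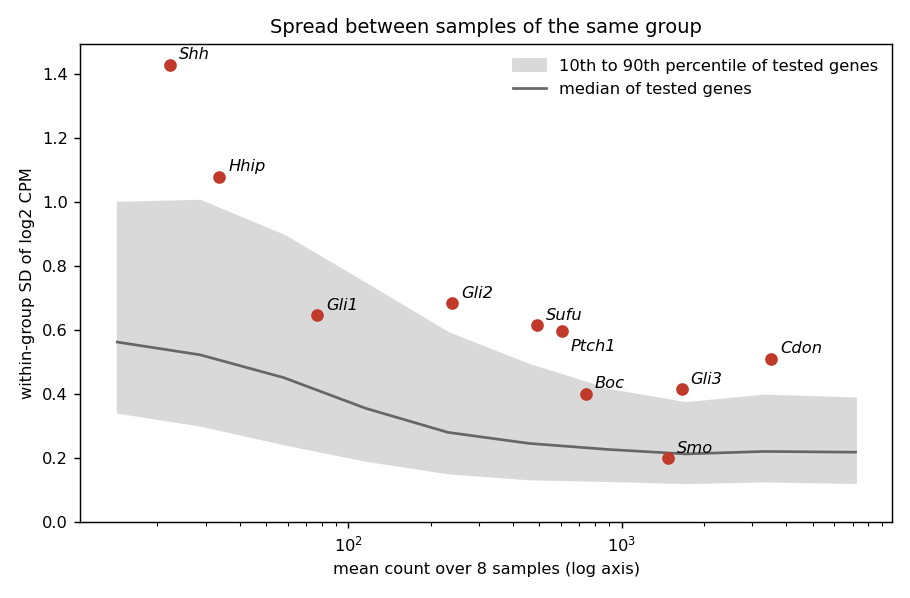
Within-group standard deviation of log2 CPM (vertical axis) against the mean count over the 8 samples (horizontal axis, logarithmic), with the 10 hedgehog genes as points, the median of tested genes in bins of count as a line, and their 10th to 90th percentiles shaded. Of the 10 genes, 9 lie above the median of genes of like count, and only Smo lies below it.

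In the ligand and in the readouts of the pathway, the sham samples of prefix S1 lay above those of prefix S3. Both S1 samples were above both S3 samples in Shh, Ptch1, Hhip and Gli1, an order found in 16.5% of all tested genes. In 0 of the 10 genes were both S1 samples below both S3 samples, an order found in 18.6%. In Ptch1 and Hhip, S1-4 was only just above S3-4 (39.8 against 36.1 CPM and 2.31 against 2.21 CPM). The mean of S1 over that of S3 was 1.72 over 0.232 CPM for Shh (a ratio of 7.41), 55.5 over 29.3 CPM for Ptch1 (1.89), 4.06 over 1.42 CPM for Hhip (2.86) and 8.02 over 2.92 CPM for Gli1 (2.75). In each of the 4 genes the ratio was at least 1.5, which together with the order holds for 5.06% of all tested genes. These ratios leaned on S1-6, and with S1-4 alone, a comparison added after seeing the data, they were 3.99 for Shh, 1.36 for Ptch1, 1.63 for Hhip and 1.99 for Gli1. By contrast the ratio was 1.01 for Smo, 0.894 for Boc, 0.721 for Cdon, 1.17 for Sufu, 1.46 for Gli2 and 1.15 for Gli3, with overlapping values. These 4 genes were singled out after their values were seen, and with 2 samples of each prefix, for which an exact test cannot give a p under 0.333, the difference was not tested.

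The comparison of IUGR with sham therefore depended on which sham samples it was made against. Against the 2 S3 samples alone, the log2 fold change was 3.41 for Shh (unadjusted p = 0.0143), 1.15 for Gli1 (0.0105) and 0.82 for Ptch1 (0.0496) in edgeR's test, and the lowest adjusted p of the 10 genes was 0.272. These were the 3 of the 10 genes with an unadjusted p under 0.05, against 9.76% of all tested genes. Against the 2 S1 samples alone, the log2 fold changes were 0.49 for Shh, −0.33 for Gli1 and −0.13 for Ptch1, and 0 of 10 genes had an unadjusted p under 0.05, against 7.68% of all tested genes. None of the 10 genes was called in either comparison, but these fits called 0.0146% (S3 alone) and 0.0% (S1 alone) of all tested genes, so that the absence of calls says nothing about the 10 genes. Markers of the subpallium and of interneurons, a ventral territory, differed between the prefixes in the same direction, with both S1 samples above both S3 samples in 8 of the 10 listed markers, against 16.5% of all tested genes. The mean log2 CPM of these markers was 5.39 in S1-4 and 5.56 in S1-6 against 4.10 in S3-1 and 4.17 in S3-4, and 4.89 to 5.86 in the IUGR samples. Lhx8, a ventral transcription factor with the largest fold change of that list, was 8.32 and 24.5 CPM in S1-4 and S1-6, 0.706 and 4.56 CPM in S3-1 and S3-4, and 5.85, 21.0, 54.6 and 49.1 CPM in T1-1, T1-3, T1-4 and T1-5. Of 12 marker lists, 4 had both S1 means above both S3 means, the others being choroid plexus (6.03 and 5.59 against 5.35 and 5.41), vessel (5.50 and 5.11 against 5.05 and 4.84) and, by a margin close to 0, meninges (4.57 and 5.15 against 4.57 and 3.77). The part of these cells in the values of Shh and the readouts was not tested.

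**Figure D5:**
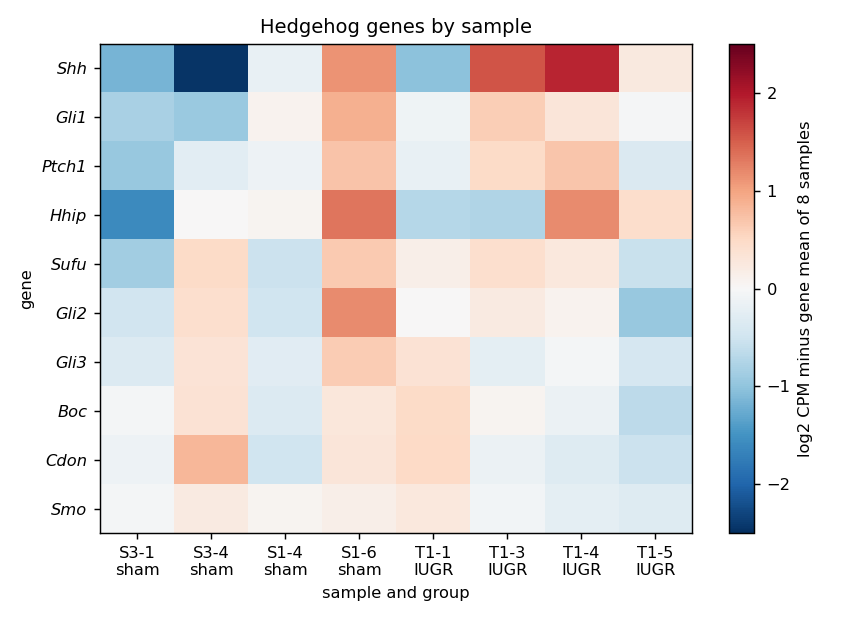
Log2 CPM of the 10 hedgehog genes minus the mean of each gene over the 8 samples (color scale, red above and blue below the mean), with samples in columns and genes in rows. S3-1 and S3-4 are blue in the rows of Shh and Gli1, S1-6 is red in every row, and Smo stays close to its mean in all samples.

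Across the 8 samples the 10 genes formed 45 pairs, of which 33 had a positive Pearson correlation of log2 CPM and 0 reached an adjusted permutation p of 0.05. The highest was that of the coreceptors Boc and Cdon, with r = 0.902 (permutation p = 0.00226, adjusted over 45 pairs 0.0508) and Spearman's rho = 0.952 (permutation p = 0.00114, adjusted 0.0502). It was 0.942 within IUGR and 0.947 within sham samples, and 0.929 without the 2 samples farthest from the median of Boc. Sufu and Gli2 followed, with r = 0.883 (permutation p = 0.00198, adjusted 0.0508) and rho = 0.929 (permutation p = 0.00223, adjusted 0.0502). Without the 2 farthest samples r was 0.880, and it was 0.996 within IUGR and 0.940 within sham. The ligand and its target Gli1 came next, with r = 0.878 (permutation p = 0.00456, adjusted 0.0513) and rho = 0.881 (permutation p = 0.00724, adjusted 0.109). For this pair r was 0.887 without the 2 farthest samples, 0.841 within IUGR and 0.958 within sham samples, where the prefixes set the order. Shh and Ptch1 had r = 0.778 (permutation p = 0.0235, adjusted 0.104), rho = 0.738 (permutation p = 0.0458, adjusted 0.188) and 0.849 without the 2 farthest samples. Gli2 and Gli3 had r = 0.858 (permutation p = 0.00407, adjusted 0.0513), rho = 0.810 (permutation p = 0.0218, adjusted 0.109) and only 0.658 without the 2 farthest samples, so that this relation rested partly on them. All pairs share the same libraries and their composition.

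Among the 11907 tested genes that averaged 50 counts or more, the genes most like each hedgehog gene over the 8 samples were found by Pearson's r of log2 CPM. They are given as a description, since the highest of so many correlations is high by selection. Shh was most like Spon1 (0.971), Shisa7 (0.964) and Kcnh4 (0.948), and Gli1 like Slc4a8 (0.986), Syn3 (0.970) and Phf19 (0.968). Ptch1 was most like 2310061I04Rik (0.967), Phyhipl (0.965) and Csdc2 (0.958), and Hhip like Rfx7 (0.960) and Dcun1d4 (0.955). For Boc they were Disp3 (0.977), Foxo6 (0.975) and Nat8l (0.969), and for Cdon Eya1 (0.968), Lhx2 (0.962), a transcription factor of the dorsal telencephalon, and Vps37b (0.960). Gli3 was most like Notch1 (0.968), a receptor that maintains neural stem cells, Vkorc1l1 (0.964) and Spata13 (0.963). Gli2 was most like Igsf9b (0.985), Cic (0.982) and Zfp628 (0.979). The values of Sufu were nearest to those of Mast3 (0.996), Kat2a (0.995) and Ndst1 (0.992), and those of Smo to Sphk2 (0.984), Tmbim6 (0.956) and Gtf3c1 (0.948).

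A wider list of 48 pathway genes was examined in the same fit, of which 47 were in the table and 46 were tested. As with the 10 genes, 0 of 46 were called by edgeR, DESeq2 or limma-voom, against 1.46% of all tested genes in edgeR's test. DESeq2 called 425 and limma-voom 328 of the 13707 tested genes. In edgeR, 29 of the 46 were lower and 17 higher, with a median log2 fold change of −0.07. An unadjusted p under 0.05 was found for 6 (3 lower and 3 higher) in edgeR, close to the 11.1% of all tested genes. It was found for 5 in DESeq2 and for 6 in limma-voom, whose shares over all genes at that p are not given here. Of the other ligands, Dhh was present at 0.0713 to 1.05 CPM, below the count filter, and Ihh is not a row of the table.

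Lrp2 encodes megalin, an endocytic receptor that binds SHH in the forebrain neuroepithelium, and of the 46 genes it had the smallest p. Its expression was 35.7, 25.5, 36.5 and 37.7 CPM in T1-1, T1-3, T1-4 and T1-5 and 66.9, 71.1, 42.6 and 58.7 CPM in S1-4, S1-6, S3-1 and S3-4. All IUGR samples were below all sham samples. The log2 fold change was −0.82 (standard error 0.19, 95% interval −1.24 to −0.40), with an adjusted p of 0.0655 in edgeR's test. With DESeq2 the adjusted p was 0.00633, but the fold change stayed short of the threshold of 1, and over all alternatives the adjusted p ranged from 0.00633 to 0.466. Gpc3, a glypican that competes with PTCH1 for the ligand, was 13.5, 97.2, 9.69 and 38.0 CPM in T1-1, T1-3, T1-4 and T1-5 and 127, 113, 82.1 and 103 CPM in S1-4, S1-6, S3-1 and S3-4. T1-3 was within the sham range and the other IUGR samples were below it, and the log2 fold change, −1.42 with a standard error of 0.59, had an adjusted p of 0.385. Without T1-3 it was −2.36 with an adjusted p of 0.0308 in edgeR's test, which met both criteria, and over all alternatives the adjusted p ranged from 0.0308 to 0.732.

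Several choroid plexus and cortical hem markers, unlike Lrp2 and Gpc3, were called lower in the IUGR samples, against 1.36% of all tested genes called lower. In the choroid plexus list, from which Ttr stands above the count limit, all 15 tested genes were lower in IUGR, against 55.5% of all. Of the 15, 3 were called, and the largest fall was in Folr1 (log2 fold change −4.16), a folate receptor gene. The mean log2 CPM of this list was 0.35, 3.57, −0.10 and 3.86 in T1-1, T1-3, T1-4 and T1-5. In the sham samples it was 5.35 to 6.03. Ttr, the transthyretin gene that marks choroid plexus epithelium, was 25.4, 966, 10.2 and 594 CPM in T1-1, T1-3, T1-4 and T1-5 and 4550 to 10850 CPM in sham samples. The 9 tested cortical hem markers were all lower, 4 of them called, among them Lmx1a (−3.09) and Wnt3a (log2 fold change −3.03, adjusted p = 0.0114 in edgeR's test). The mean log2 CPM of the hem list was 0.71 to 2.83 in IUGR and 2.97 to 3.79 in sham samples. The groups did not overlap in 11 of the 15 choroid plexus and 6 of the 9 hem markers, against 7.14% of all tested genes. T1-1 and T1-4, with the lowest choroid plexus values, also had the lowest Gpc3, whereas Lrp2 was lowest in T1-3. The meninges list, with all 8 markers higher in IUGR (median 1.20 on the log2 scale) and 0 called or under an unadjusted p of 0.05, had a mean log2 CPM of 4.21, 7.38, 2.17 and 5.45 in T1-1, T1-3, T1-4 and T1-5, the same order as Gpc3, and 3.77 to 5.15 in sham samples. The part of these tissues in the values of Lrp2 and Gpc3 was not tested. All 8 hippocampal markers were expressed, and all 8 had negative fold changes, with a median of −0.37 on the log2 scale and a list mean of 6.22 to 6.63 in IUGR and 6.07 to 7.29 log2 CPM in sham samples, and 0 of them were called, with 2 at an unadjusted p under 0.05. Lhx2, whose values were among the most like those of Cdon, is on this list. Of 9 radial glia markers, 5 were lower and 4 higher (median −0.10, Sox2 −0.22), and all 8 neuronal markers were higher (median 0.46, Snap25 0.58), 5 of them at an unadjusted p under 0.05 (11.1% of all tested genes) and 2 without overlap (7.14%). Syt1, a synaptic vesicle protein gene, had the largest change of these, 1.08 (adjusted p = 0.0629 in edgeR's test). Of the 10 subpallium and interneuron markers, 9 were higher (median 0.22, Lhx8 1.78) and only Dlx2, at −0.19, was lower. None of the genes of these 3 lists was called.

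The remaining pathway genes with an unadjusted p under 0.05 were spread over several roles. Gpc5, a glypican, had a log2 fold change of 1.25 (adjusted p = 0.259), at no more than 2.46 CPM in any sample. Efcab7, a ciliary protein that helps anchor the complex through which SMO signals, had 0.55 (adjusted p = 0.3998). Prkacb, a catalytic subunit of protein kinase A, which opposes the pathway by marking GLI proteins for processing, had 207 to 251 CPM in the IUGR samples, above the sham range of 182 to 193 CPM, a log2 fold change of 0.29 (adjusted p = 0.338). Ift57, an intraflagellar transport protein of the cilium, had 26.0 to 31.9 CPM in the IUGR samples, below the sham range of 33.8 to 38.9 CPM, a log2 fold change of −0.33 (adjusted p = 0.328). These adjusted p-values are from edgeR's test, so none of the 4 genes passed. With Lrp2, that made 3 of 46 genes whose groups did not overlap, against 7.14% of all tested genes. The other genes with the smallest p of their role had log2 fold changes of −0.44 (Tulp3), −0.31 (Iqce), −0.28 (Ift80), −0.19 (Ift122), −0.38 (Stk36), −0.17 (Ulk3), −0.58 (Scube2), −0.29 (Hhat), −0.25 (Scube3) and −0.31 (Gpc4), all at an unadjusted p above 0.05. Gas1, a further coreceptor, had −0.07.

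None of the listed genes known to respond to hedgehog signaling in other tissues was called, against 1.46% of all tested genes. Of 17 listed, 14 were in the table and 12 were tested. Of the 12, 4 were lower and 8 higher, with a median of 0.27 on the log2 scale. In edgeR, DESeq2 and limma-voom 0 of the 12 were called, while DESeq2 called 425 and limma-voom 328 of the 13707 tested genes. An unadjusted p under 0.05 was found for 2 in DESeq2 and 1 in limma-voom, whose shares over all genes at that p are not given here. In edgeR it was found for 1, against 11.1% of all tested genes. In edgeR this was Bcl2, a survival gene, with 58.8, 49.1, 38.3 and 49.6 CPM in T1-1, T1-3, T1-4 and T1-5 and 64.8, 63.1, 60.2 and 76.7 CPM in S1-4, S1-6, S3-1 and S3-4. All IUGR samples were lower than all sham samples, by 0.44 on the log2 scale (fitted value −0.44, standard error 0.15, edgeR's adjusted p = 0.260). Ccnd1, which encodes cyclin D1, was 143, 205, 178 and 129 CPM in T1-1, T1-3, T1-4 and T1-5. It was 136, 165, 83.7 and 82.8 CPM in S1-4, S1-6, S3-1 and S3-4, so that only the S3 samples were below all IUGR samples, and the log2 fold change was 0.49 (adjusted p = 0.532).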

How the data were processed

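RNA of 8 E15.5 mouse hippocampus samples (4 IUGR and 4 sham) had been depleted of ribosomal RNA and read from one end, with a kit that keeps the strand. The values deposited are unnormalized counts of reads on each gene, which the authors aligned to mm10 (GRCm38). The submitters' processing notes name Novoalign 2.8, and the counting program, annotation and strand setting are not given in the sources used here. Total counts were 12919546 to 16672463 in IUGR and 11212632 to 15405748 in sham samples.

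Genes were matched to GENCODE M21 by identifier, and 273 of 16397 rows had no match. Protein-coding genes averaging 10 or more but under 50000 counts were tested in R 4.3.3 with edgeR 4.0.16 (TMM, quasi-likelihood test), without covariates. Benjamini-Hochberg adjustment was made over 13707 genes, and the scripts were tested on simulated data. Samples were grouped by the treatment label. The alternatives were DESeq2 1.42.0, limma-voom (limma 3.58.1), other scalings, filters and thresholds, each sample left out, and S1 or S3 sham samples alone.

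The members and lists were chosen with earlier results of these data known. Named genes were the 10 members, called pathway or target genes and the 3 of smallest p in each role, the 3 genes most like each member, and fixed markers with those of largest change in the lists that bear on a result. Some genes that this rule names are not reported here.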

Additional observations from a re-analysis of the deposited data

How the results depend on the processing

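The count of called hedgehog genes was 0 under all 18 alternatives, and so was that of called target genes, but over all genes tested the same fits called from 0 (S1 alone) and 2 (S3 alone) to 425 (DESeq2), so that in some of them almost no gene was called. The lowest adjusted p of any of the 10 genes under an alternative was 0.272. For the wider pathway list the count was 0 except without T1-3, so that it ranged from 0 to 1 with each sample left out. Of 168 fold changes of the 10 genes under alternatives, 16 changed sign, in 7 genes. Shh, Smo and Cdon kept their direction in all of theirs. Cdon, however, fell to −0.00615 without S3-4 and to −0.0331 against the S1 samples alone. Against the S1 samples alone, the log2 fold change turned to −0.126 for Ptch1, −0.0675 for Sufu and −0.33 for Gli1, and against the S3 samples alone to 0.914 for Hhip. With limma-voom, Hhip turned to 0.0646. With each sample left out, log2 fold changes ranged from −0.272 to 0.0628 for Boc (the latter without T1-5, and 0.00134 without S1-6), from −0.172 (without S3-1) to 0.337 for Sufu, and, with the highest value without S1-6 in each, from −0.565 to 0.666 for Hhip, from −0.617 to 0.0638 for Gli2 and from −0.346 to 0.0336 for Gli3. Sufu was also negative without T1-3 (−0.0477), T1-4 (−0.00955) and S1-4 (−0.0951), and Hhip positive without T1-3 (0.24) and T1-1 (0.226). Ptch1 ranged from 0.054 without S3-1 to 0.671 without S1-6, and Gli1 from 0.00613 without S3-4 to 0.761 without S1-6. The cause of these changes was not tested. Leaving out S1-6 gave Shh an unadjusted p of 0.0217 in edgeR (adjusted 0.283). Shh and Hhip could not be fitted at a mean count of at least 50, which their counts do not reach. No paired analysis was possible because the labels give the samples of the groups no shared animal, litter or batch number. None of 20 groups of 4 values had a sample far from the others by Dixon's criterion.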
